A study of Homo sapiens with 7 samples.

Results

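CCAT1 is a long non-coding RNA made from a gene at 8q24, upstream of MYC, and its silencing in TE5, an established line of esophageal squamous carcinoma cells, was examined here by RNA-Seq across all genes. The TE5 shCCAT1 library, from cells with short hairpin RNA number 2 against CCAT1 delivered by lentivirus, was compared with the TE5 scramble library, from cells with a non-targeting hairpin. All cells grew in medium with fetal bovine serum, and no other treatment, allele or time of harvest is given in the labels. Of the 33156 genes with a count in either library, the 15489 with 100 or more estimated counts in at least 1 of them were taken as well counted, against 17096 genes that reach this minimum in at least 1 of the 7 libraries of the series.

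The scramble library held 80657923 estimated counts and the shCCAT1 library 93706886, and 31179 and 28818 genes had a count. There was 1 library per condition, so no spread between replicates could be measured and no p-values are given. The 95% intervals cover counting error only. A single hairpin was sequenced, and effects of its own cannot be told apart from those of losing CCAT1. The scramble library was run on another flow cell than the shCCAT1 library, so flow cell and knockdown cannot be told apart either. The TE5 shTP63 and TE5 shSOX2 libraries, in which hairpins against TP63 or SOX2 were used, shared the flow cell and the lane of shCCAT1, and their levels are given beside the results. They also share the scramble control. In bulk RNA, fewer cells of a kind and less RNA per cell cannot be told apart.

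Squamous epithelium is built of stacked cells held together by desmosomes and tied to a basement membrane by hemidesmosomes, and its basal cells are kept by the transcription factors TP63 and SOX2 and filled with a basal pair of keratins. Long non-coding RNAs such as CCAT1 can act on chromatin at enhancers, which are DNA stretches that raise transcription of genes at a distance. EGFR, the receptor for epidermal growth factor, drives growth of squamous carcinomas through the MEK/ERK and PI3K/AKT kinase cascades.

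The cells carried the markers of their label. Of 10 markers of squamous epithelium, 9 were well counted in both libraries, and the summed level of the 10 was 2040 TPM (transcript abundance scaled to the same total in each library) in scramble and 1260 TPM in shCCAT1. The exception was KRT14, the partner of KRT5 in basal cells, with 29 and 24 normalized counts. The 4 simple-epithelium keratins KRT7, KRT8, KRT18 and KRT19 were well counted too (2620 and 2320 TPM summed). Of 7 fibroblast markers, only COL1A1 was well counted (14.8 and 12.6 TPM), and DCN, LUM, PDGFRA and PDGFRB were each below 1 TPM. Of 6 leukocyte markers, CD68 and ITGAM were well counted, while PTPRC and CD3E, which define leukocytes and T cells, were below 1 TPM in both libraries. Of the 4 endothelial markers found, CDH5 and VWF were well counted, and their whole list summed to 2.41 and 2.57 TPM.

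CCAT1 itself (ENSG00000247844, on the minus strand of hg19 chromosome 8 from 128216657 to 128231483) was counted at 553.8 in scramble and at 169.5 in shCCAT1 after normalization, which is 30.6% of the scramble level (log2 change -1.70, interval -1.94 to -1.47). It had 209.8 in shTP63 and 280.6 in shSOX2, so that scramble was the highest of the TE5 libraries and shCCAT1 the lowest. Against the mean of shTP63 and shSOX2 the log2 difference was -0.53. Normalized counts are estimated counts divided by a library's size after TMM scaling, a scaling that lines up the bulk of genes between libraries.

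Among the other well-counted genes around CCAT1, none fell to a log2 change of -1 or lower, against 1.99% of all well-counted genes. The oncogene MYC had 11569 counts in scramble and 8877 in shCCAT1 (log2 change -0.38, interval -0.42 to -0.34). PCAT1, another long non-coding RNA of the region, had 119 and 76.2 (-0.64, interval -1.05 to -0.24), SQLE, a sterol synthesis enzyme, 23548 and 17166 (-0.46), and PVT1, the non-coding neighbour of MYC, 1896 and 1775 (-0.09). NSMCE2, TRIB1 and CASC8 were above 0, at 0.37, 0.28 and 0.31. Over the 10 well-counted genes of the neighbourhood, CCAT1 included, the median was -0.11.

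The genes that the study itself discusses for CCAT1 were chosen on these samples, so their direction is not independent evidence. EGFR (ENSG00000146648; hg19 chromosome 7, 55086710 to 55279321) had 47264 normalized counts in scramble and 32469 in shCCAT1 (log2 change -0.54, interval -0.56 to -0.52), with 37366 in shTP63 and 50877 in shSOX2. The thioredoxin reductase TXNRD1 had 39805 and 23463 (-0.76), the kinase YES1 27368 and 17914 (-0.61), the chromatin protein HMGA1 63571 and 41658 (-0.61), PAK4, a kinase of the actin cytoskeleton, 6312 and 4216 (-0.58), and the cell-cycle kinase CDK4 14413 and 9788 (-0.56). Transcripts assigned by their position in the table brought 76.1% of the count of TXNRD1 and 41.5% of that of PAK4. TP63 (26672 and 22908, -0.22) and SOX2 (11936 and 10600, -0.17) differed least. The median of these 10 genes, CCAT1 included, was -0.57, and 1 of them, CCAT1 itself, fell to a log2 change of -1 or lower, as 1.99% of all well-counted genes did. With the median change of genes of like GC share taken off, the median of the 10 was -0.40, and with that of genes of like level -0.36. Against the mean of shTP63 and shSOX2 it was -0.09, where TP63 and SOX2, the targets of those hairpins, are among the 10.

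Across the well-counted genes, 308 (1.99%) fell to a log2 change of -1 or lower and 316 (2.04%) rose to 1 or higher. These are the calls used here, and "fell" and "rose" are kept for them. The median log2 change was -0.04, with quartiles at -0.27 and 0.20. The whole counting interval lay past the fold for 165 of the genes that fell and 124 of those that rose. Members just inside and just outside the fold were at -1.0 and -0.996 on the lower side and both at 1.0, after rounding, on the upper side. A scaling by total counts alone gave 199 lower and 540 higher genes and moved the median of all genes to 0.13. When the median change of genes of like level was taken off, 398 genes were lower and 184 higher. Against the mean of shTP63 and shSOX2, 487 of the same genes (3.14%) were at -1 or lower and 266 (1.72%) at 1 or higher.

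Most genes that rose passed the count minimum only through the library in which they were high: 246 of 316 reached 100 counts in shCCAT1 alone, while of the genes that fell 198 of 308 reached it in both libraries and 110 in scramble alone. The make-up of the calls is given with that limit. Of the genes that fell, 87.3% were protein-coding and 10.1% lncRNA genes, against 84.5% and 12.9% of all well-counted genes. Of the genes that rose, 44.6% were protein-coding, 41.1% lncRNA genes and 13% pseudogenes. The median level of the genes that rose went from 52 normalized counts in scramble to 142 in shCCAT1, and that of the genes that fell from 298 to 114. Among the 13087 protein-coding genes alone, 269 (2.06%) fell and 141 (1.08%) rose. Among the 4182 genes with 5000 or more normalized counts, 10 fell (0.239%) and 1 rose (0.0239%).

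**Figure D1:**
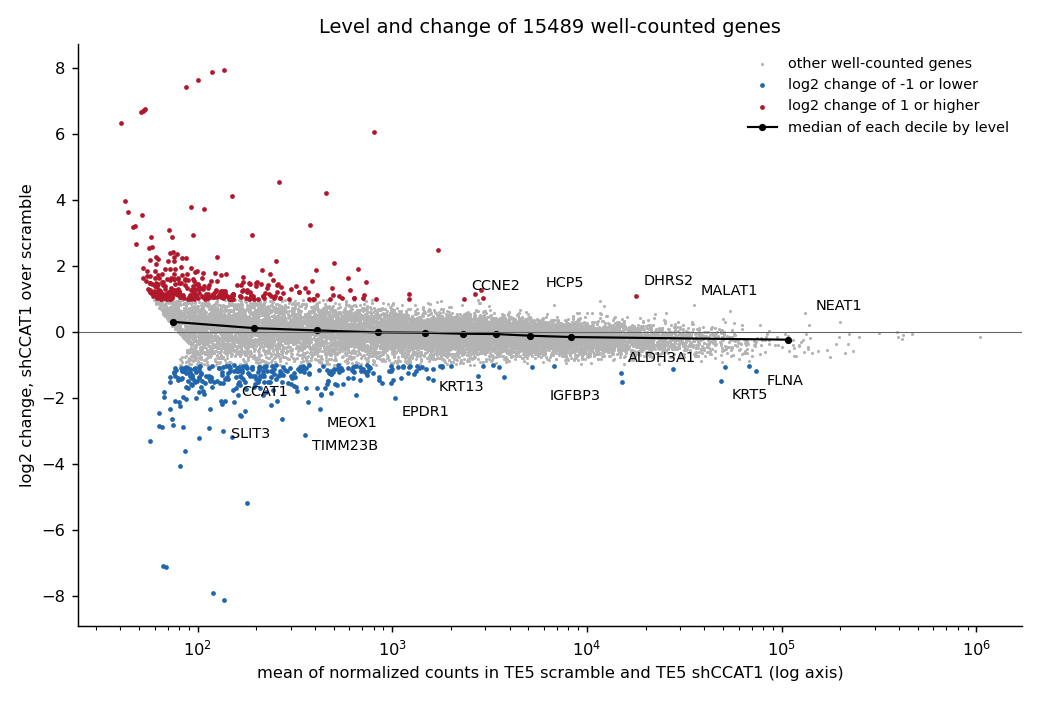
Each point is 1 of the 15489 well-counted genes, with its mean normalized count in both libraries on a log axis and its log2 change in shCCAT1 over scramble. Genes at 0 in 1 library are drawn with the 1 count added to both. Blue points fell to -1 or lower (308 genes), red points rose to 1 or higher (316 genes), and the black line, the median of each decile of genes by level, runs from 0.32 at the lowest level to -0.22 at the highest.

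The change moved with level and with base composition. In the lowest decile of genes by mean level (40.5 to 137 normalized counts) the median was 0.32, and 13.8% of genes rose and 6.39% fell. In the highest decile (11067 or more) it was -0.22, and 1280 of 1549 genes lay below 0. In protein-coding genes ranked by the GC share of their most abundant transcript, the median went from 0.07 in the lowest decile (30.6% to 38.8% GC) to -0.35 in the highest (62.2% to 81.5% GC), and the share that fell from 0.382% to 4.81%. Against the mean of shTP63 and shSOX2, run in the same lane, the same medians were 0.07 and -0.18. Genes that fell had a median GC share of 55.1%, against 49.4% for all well-counted protein-coding genes. For some lists and genes below, values with the median of the gene's GC decile or level decile taken off are given too.

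**Figure D2:**
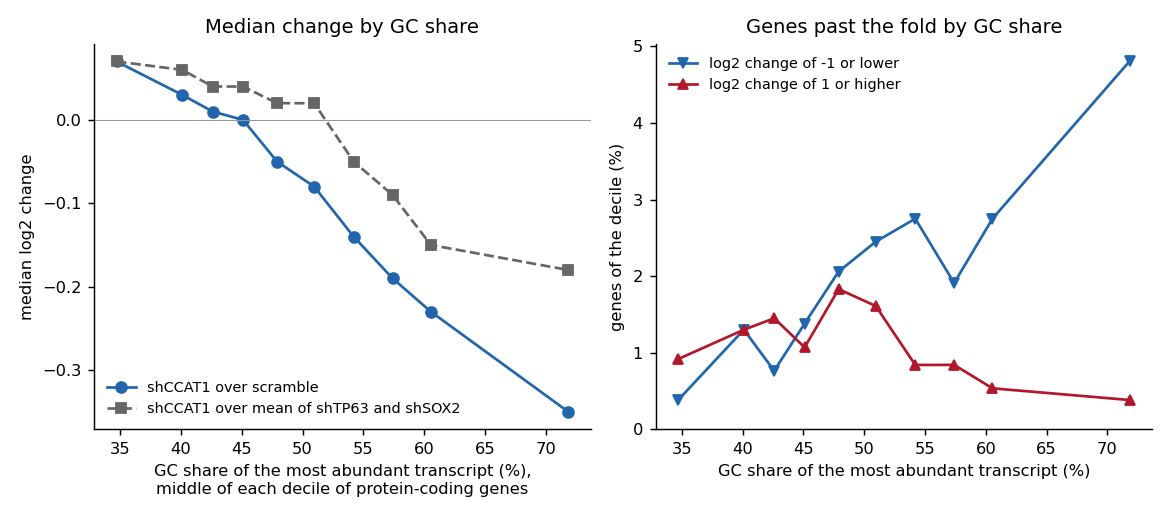
Protein-coding genes were put in deciles by the GC share (%) of their most abundant transcript. The left panel gives the median log2 change of each decile for shCCAT1 over scramble (0.07 to -0.35) and for shCCAT1 over the mean of shTP63 and shSOX2 (0.07 to -0.18). The right panel gives the percent of genes in each decile that fell (0.382% to 4.81%) or rose.

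The most abundant genes that fell were structural genes of the squamous cell and its actin skeleton. KRT5 (hg19 chromosome 12, 52908359 to 52914314), the keratin of basal cells, had 71452 normalized counts in scramble and 25680 in shCCAT1, 35.9% of the scramble level (log2 change -1.48, interval -1.50 to -1.46). It had 20499 in shTP63 and 82998 in shSOX2, so that shCCAT1 and shTP63 were low and the other libraries high. KRT6A, a keratin of stressed and fast-growing squamous cells, had 37883 and 17477 (-1.12), yet 6022 in shTP63 and 5132 in shSOX2, both below shCCAT1. KRT6A shares 45.3% of its 31-base words with other genes, so part of its count could belong to its paralogs. KRT13, a keratin of the upper layers of wet epithelia, had 5343 and 2117 (-1.34), with 4953 in shTP63 and 3284 in shSOX2.

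Filamin A, non-muscle myosin IIA and fascin fell together. FLNA, which crosslinks actin, had 101517 and 45326 (log2 change -1.16, interval -1.18 to -1.15), against 97134 in shTP63 and 93646 in shSOX2. MYH9, the heavy chain of that myosin, had 69133 and 33593 (-1.04), against 73163 and 75434. For both genes shCCAT1 was the only low library of the 4. FSCN1, the actin-bundling fascin of cell protrusions, had 91089 and 45264 (-1.01), with 57181 in shTP63 and 94004 in shSOX2. DBN1, another actin-binding protein, had 4746 and 2288 (-1.05). The transcript of FLNA is 62% G and C. With the median of the GC decile taken off, FLNA (-0.83), MYH9 (-0.89), FSCN1 (-0.68) and KRT6A (-0.96) no longer reached the fold, nor did they with the level decile taken off (-0.94, -0.82, -0.79 and -0.89).

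The remaining abundant genes that fell act in growth factor control, detoxification and matrix. IGFBP3, which binds insulin-like growth factors outside the cell, had 22192 counts in scramble, 7887 in shCCAT1, 9438 in shTP63 and 36818 in shSOX2 (log2 change -1.49, interval -1.53 to -1.46), with 42.8% of its count assigned by position. ALDH3A1, an aldehyde dehydrogenase of squamous epithelium, had 20868 and 8944 (-1.22), with 9254 in shTP63 and 11289 in shSOX2, so that scramble stood above all knockdown libraries. LOXL2, which crosslinks collagen, had 9137 and 4467 (-1.03), with 10869 and 14714. UCHL1, a deubiquitinase best known from neurons, had 7035 and 3423 (-1.04), with 5358 and 7703. In LOXL2 and UCHL1 shCCAT1 was the lowest of the 4. LOXL2 was at -0.88 with the GC decile taken off and at -0.89 with the level decile, and UCHL1 at -0.94 with the level decile, all short of the fold.

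Only DHRS2 rose past the fold at this level. This short-chain dehydrogenase had 11328 counts in scramble and 24314 in shCCAT1 (log2 change 1.1, interval 1.07 to 1.13), with 54645 in shTP63 and 9502 in shSOX2. Next came genes short of the fold. The non-coding RNAs HCP5, of the MHC region, and MALAT1 and NEAT1, both kept in the nucleus, were at 0.95 (7886 and 15285), 0.82 (25594 and 45118) and 0.58 (105815 and 158323). FAM111A and FAM111B, paired protease genes, were at 0.81 and 0.82. For FAM111B the level in shCCAT1 (8613) stood above scramble (4863), shTP63 (2793) and shSOX2 (2895). PNN, a desmosome-associated splicing protein, was at 0.60.

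**Figure D3:**
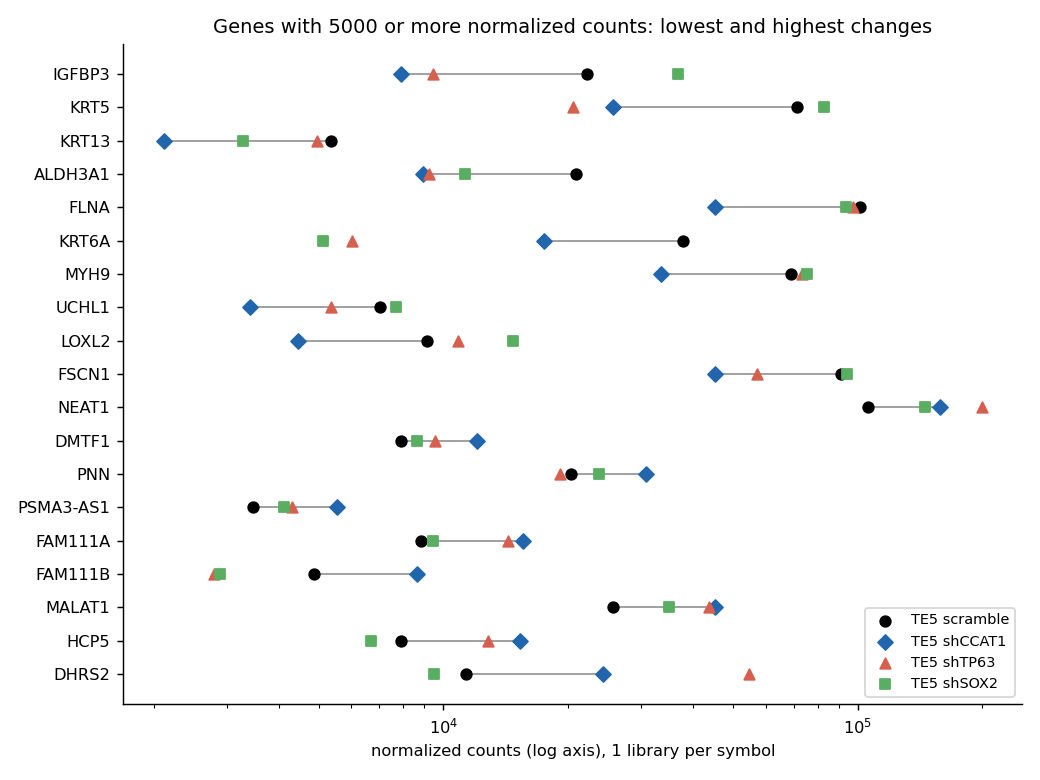
Normalized counts (log axis) of the 10 lowest and 9 of the 10 highest changes among genes with 5000 or more counts, in 4 TE5 libraries with 1 library per symbol. Grey lines join scramble and shCCAT1. FLNA and MYH9 were low only in shCCAT1, while KRT6A was lower still in shTP63 and shSOX2, and DHRS2 was highest in shTP63 (54645).

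Of the 269 protein-coding genes that fell, 31 share over 50% of their words with other genes and 12 more lie beside a transcript without a gene, which leaves 226 with a median level of 339 counts in the higher library. By function as known from textbooks, 128 of these were put into groups after their values were seen. The groups have no count of unchanged members, and their sizes carry no test. The genes are mostly of low level, where few reads set each value. In the lowest level decile 6.39% of all genes fell and in the next 5.94%, against 2.06% of all well-counted protein-coding genes. The group sizes thus cannot show that genes of one function fell more often than others.

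The largest group, with 24 genes, holds axon guidance cues and receptors, adhesion proteins of synapses and neurotrophic signals. SLIT3, a secreted guidance cue, had 241.4 normalized counts in scramble, 29.7 in shCCAT1, 141.3 in shTP63 and 109.3 in shSOX2 (log2 change -2.98, interval -3.54 to -2.50), with 50.9% of its count assigned by position. BOC, a receptor that binds hedgehog proteins, had 223.7 and 51.7 (-2.09), against 182.7 and 302.7. TENM3 and TENM2, the teneurins, were at -1.91 and -1.51 with 45.8% and 77.5% so assigned, DSCAM at -1.81 and LRFN1 at -1.73. Of the Eph family, the ligand EFNB3 (302 and 105) and the receptors EPHA5, EPHB1 and EPHB2 (1921 and 924) were at -1.51, -1.27, -1.09 and -1.06. ARTN, a neurotrophic ligand of the GDNF family, had 1328 and 589 (-1.17), and GFRA1, a co-receptor of that family, 120 and 44.6 (-1.41). DNER, a Notch-binding membrane protein of neurons, had 2048 and 942 (-1.12), while shTP63 (3049) and shSOX2 (2650) were above scramble.

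A related group of 16 genes codes for the neuronal cytoskeleton, axonal transport and the synapse. CRMP1, which steers growth cones, had 2210 counts in scramble, 849 in shCCAT1, 1416 in shTP63 and 430 in shSOX2 (-1.38). The microtubule-associated proteins MAP1A, MAP1B and MAP2 were at -1.23, -1.03 and -1.0, the kinesins KIF17 and KIF1A at -1.46 and -1.31, and the intermediate filament gene NES at -1.47 (155 and 55.5). SHANK3, a synaptic scaffold, had 1446 and 694 (-1.06). Another group of 13 genes holds ion channels and G-protein-coupled receptors, among them the glycine receptor subunit GLRB (140 and 34.1, -2.01), the GABA receptor GABBR2 (104 and 29.3, -1.80), the potassium channels KCNK2 (282 and 113) and KCNMA1 (437 and 185), the calcium release channels RYR2 (591 and 292, 65.1% assigned by position) and ITPR1 (983 and 491), and the neurotensin receptor NTSR1 (739 and 324).

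Extracellular matrix genes and the enzymes that modify matrix made up 20 of the genes that fell. MFAP5, a microfibril protein, had 601.9 counts in scramble and 139.1 in shCCAT1 (-2.11, interval -2.37 to -1.87), with 693.2 in shTP63 and 118.8 in shSOX2, so that shCCAT1 and shSOX2 were low. The laminin chains LAMA1 (1315 and 459, -1.52) and LAMC3 (1593 and 611, -1.38) fell, and LAMA1 stood at 1229 in shTP63 and 2105 in shSOX2. The collagen VI chain COL6A2 (124 and 28.5) was at -2.08, the proteoglycan CSPG4 (134 and 34.1) at -1.95 and SPON2 (339 and 118) at -1.51. Lysyl oxidase LOX (186 and 80.1) was at -1.21. Of enzymes acting on heparan sulfate, the sulfatase SULF1 (376 and 112) was at -1.74 and the sulfotransferases HS3ST3B1 (637 and 287) and HS3ST3A1 (224 and 101) at -1.15 and -1.14. SPP1, the secreted phosphoprotein osteopontin, had 2421 and 1196 (-1.02).

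Cell adhesion, Wnt signals and growth factors followed. The cadherin CDH11 had 902 counts in scramble, 347 in shCCAT1, 310 in shTP63 and 386 in shSOX2 (-1.38), so that scramble was the only high library. ICAM5 (832 and 279) was at -1.57, JAM3 (458 and 178, 85.2% assigned by position) at -1.36 and HEG1 (2203 and 1023) at -1.11. The ligand WNT5A had 1226 and 481 (-1.35, interval -1.49 to -1.21), against 1641 in shTP63 and 2251 in shSOX2. VANGL2, PRICKLE1 and PRICKLE2, which pass on planar polarity, were at -1.32, -1.15 and -1.35. VANGL2 had 314 and 125, with 654 in shTP63 and 315 in shSOX2. IGF2, with 26% of its words shared, had 301 and 119 (-1.33), the chemokine CXCL14 234 and 69 (-1.75) and the receptor FGFR4 803 and 378 (-1.09). IGFBP5, with 111.3 and 14.8 counts, was at -2.83, but at 0.11 when TPM values were used in place of counts.

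Transcription factors made up 20 of the grouped genes that fell. MEOX1, a homeobox gene, had 703.4 counts in scramble, 141.2 in shCCAT1, 373.4 in shTP63 and 219.6 in shSOX2 (log2 change -2.31, interval -2.56 to -2.08), the lowest level again being that of shCCAT1. BARX1, a homeobox gene of the foregut, had 759 and 213 (-1.83), with 394 and 620. DMRT1 and DMRTA1 were at -1.78 and -1.58, MAFA (488 and 155) at -1.64, SOX21 (951 and 425) at -1.16 and GLI1, the effector of hedgehog signalling, (499 and 249) at -1.0. ZNF703 had 1047 and 430 (-1.28).

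**Figure D4:**
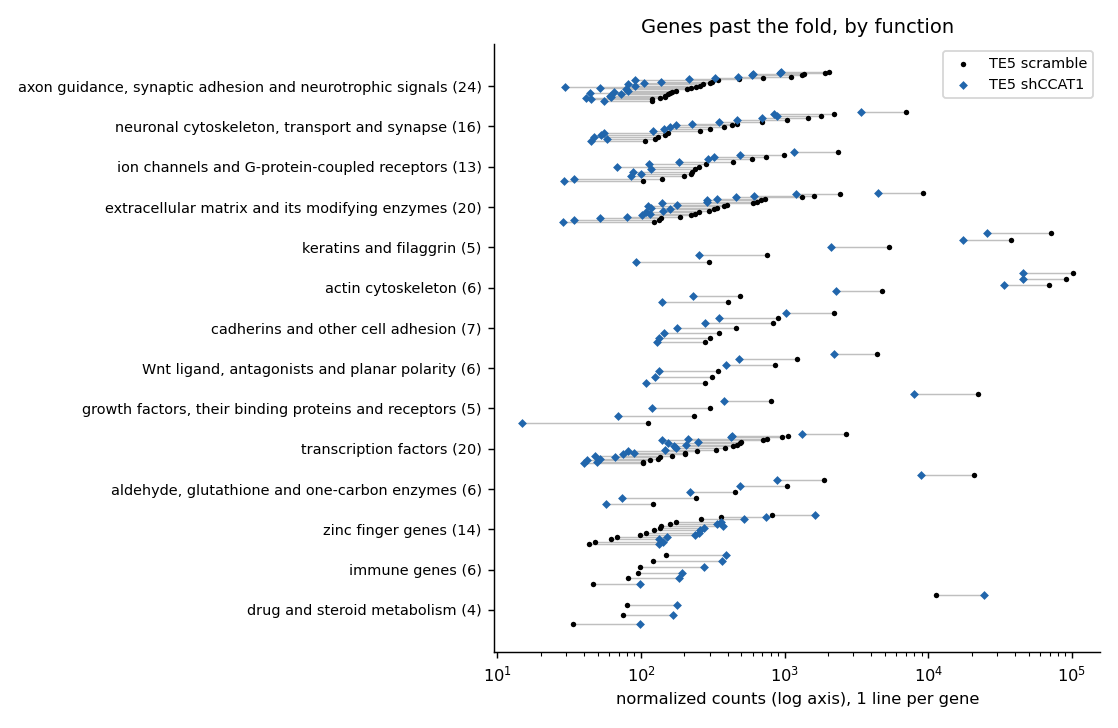
Normalized counts (log axis) in scramble (black) and shCCAT1 (blue) of protein-coding genes past the fold that were grouped by function after their values were seen. These are 128 of the 269 that fell and 24 of the 141 that rose. Each line is 1 gene. FLNA, FSCN1, MYH9, KRT5 and KRT6A are the most abundant of the genes that fell, most neuronal and transcription factor genes lie below 2000 counts in scramble, and the last 3 groups hold genes that rose.

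Of the 15 genes with the lowest upper interval bound among those sharing at most 50% of their words, several have no group above. TIMM23B, a copy of a mitochondrial import gene, had 636.9 counts in scramble and 72.2 in shCCAT1 (-3.12), with 549.4 in shTP63 and 483.6 in shSOX2, so that shCCAT1 stood alone. Its words were marked as shared at 0%, and a split of reads with the gene it copies was not tested. EPDR1, a lysosomal protein gene, had 1647 and 410 (-2.0, interval -2.15 to -1.86), against 1833 and 2349, although 82% of its count came through transcripts assigned to it by position in the table. RBM20, a splicing factor of muscle, had 294.5 and 55.6 (-2.38), NACAD 392.3 and 84.1 (-2.21), ZC3HAV1L 248.3 and 57.3 (-2.10), and CEND1, a gene of neuronal differentiation, 128 and 19.8 (-2.63). NAT8L (115.9 and 15.1) lies beside an unassigned transcript.

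The 48 gene lists by function count members that moved and members that did not. In 15 lists a member fell and in 2 a member rose, while 1.99% of all well-counted genes fell and 2.04% rose. A count of lists and a share of genes are unlike measures, so no excess can be read from them. The median was below that of all genes (-0.04) in 37 lists and above it in 10. In 15 lists it was -0.30 or lower, and this held for 7 lists after the median of a gene's level decile was taken off and for 9 after that of its GC decile.

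**Figure D5:**
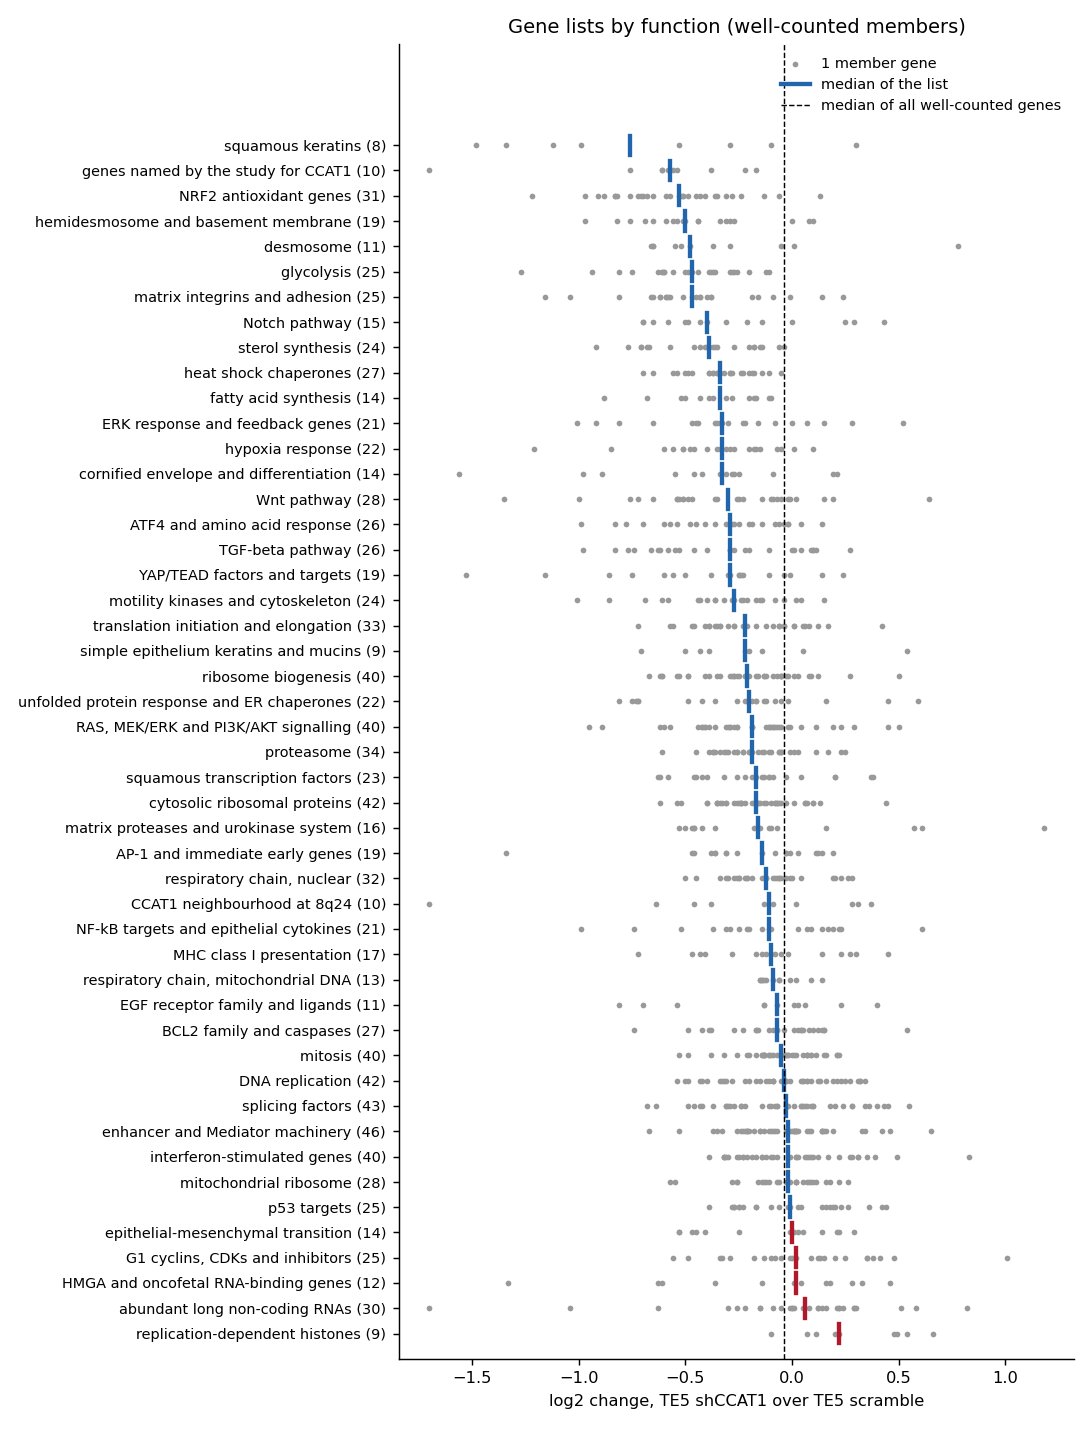
Log2 change in shCCAT1 over scramble of each well-counted member (grey points) of 48 gene lists, with the number of members in brackets and the list's median as a bar. The dashed line is the median of all well-counted genes (-0.04). Squamous keratins (-0.76) have the lowest median and replication-dependent histones (0.22) the highest. The keratin median lies between KRT17 and KRT6C, which shares 45.4% of its words with other genes.

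Squamous keratins had the lowest median, -0.76 over 8 well-counted members of 12. KRT5, KRT13 and KRT6A fell, KRT6C (149.8 and 75.1) was at -0.99, KRT17 (37184 and 25779) at -0.53 and KRT15 (7271 and 6777) at -0.10, and KRT10, of cornifying layers, was above 0 (4369 and 5393, 0.30). The median lies between KRT6C and KRT17. KRT6C shares 45.4% of its words with other genes, so part of its count could belong to its paralogs. The list's rank as lowest rests in part on that gene. The median of the list was -0.58 with the GC decile taken off and -0.17 against the mean of shTP63 and shSOX2. Of the cornified envelope list, 14 of 32 members were well counted and 1 fell: FLG, filaggrin, had 753.9 in scramble and 254.8 in shCCAT1 (-1.56), with 474 in shTP63 and 463.5 in shSOX2. The protease KLK7 (-0.98) and the calcium-binding S100A9 (-0.89) stood short of the fold, and the list's median was -0.33.

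In the desmosome and hemidesmosome lists no member passed the fold. Their medians became -0.30 and -0.27 with the level decile taken off, and that of the desmosome list was -0.25 against the mean of shTP63 and shSOX2. In the desmosome list the median was -0.48 over 11 members: JUP, plakoglobin, had 94932 and 60505 (-0.65), PKP1 21646 and 13744 (-0.66) and PKP3 20493 and 13084 (-0.65), while DSG1, a desmoglein of upper layers, had 183.5 and 316.5 (0.78). In the hemidesmosome and basement membrane list it was -0.50 over 19 members, 16 of them with an interval below 0. The integrin ITGB4 had 69065 and 42793 (-0.69), the linker PLEC 33492 and 19803 (-0.76), and the collagen IV chains COL4A2 and COL4A1 were at -0.97 and -0.82. JUP had 111540 in shTP63 and 93025 in shSOX2 and PLEC 35555 and 33002, so that shCCAT1 was the low library for both. The list of matrix integrins and adhesion, with FLNA and MYH9 as members that fell, had a median of -0.47 (-0.32 with the level decile taken off), and 23 of 25 members were below 0. Simple-epithelium keratins and mucins had a median of -0.22 (0.00 with the level decile taken off), with KRT8 at -0.50 and MUC4 at 0.54.

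Of 31 well-counted antioxidant genes driven by NRF2, 30 were below 0 and 1, ALDH3A1, fell, and the median was -0.53 (-0.50 with the GC decile taken off, -0.43 with the level decile). The aldo-keto reductases AKR1C2 (31033 and 15843) and AKR1C1 (7788 and 4131) were at -0.97 and -0.91, although they share 43.9% and 30.8% of their words with other genes, 79.2% of the count of AKR1C2 was assigned by position and AKR1C1 lies beside an unassigned transcript. The cystine transporter SLC7A11 had 10168 and 5738 (-0.83) and GCLC, of glutathione synthesis, 14588 and 8273 (-0.82). NFE2L2, which codes for NRF2 itself, was the exception at 0.13 (16828 and 18412). Against the mean of shTP63 and shSOX2, the list's median was -0.35.

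In 3 lists of central metabolism all well-counted members were below 0, where 55.3% of all well-counted genes and 82.6% of those in the highest level decile were. All 25 glycolysis genes were below 0, with a median of -0.47 and 25 intervals below 0. Of these, SLC2A3, a glucose transporter that shares 29.1% of its words with other genes, fell (1822 and 755, -1.27), but it had 6703 in shTP63 and 688.6 in shSOX2. ALDOC (-0.94), PGK1 (76469 and 43515, -0.81, 69.8% assigned by position) and GPI (-0.75) followed. The summed level of the list was 1435368 normalized counts in scramble and 995679 in shCCAT1. All 24 sterol synthesis genes were below 0 (median -0.39), led by LSS (10201 and 5389, -0.92), MVD (-0.77) and DHCR7 (-0.71). All 14 fatty acid synthesis genes were below 0 (median -0.34), led by FASN, fatty acid synthase (88293 and 48072, -0.88), which had 75003 in shTP63 and 75530 in shSOX2. The genes of glycolysis have a median GC share of 54%, and with the GC decile taken off their median was -0.34. With the level decile taken off the 3 medians were -0.27, -0.23 and -0.19.

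Genes of stress responses lay in the same range. Hypoxia response genes had a median of -0.33, with 20 of 22 members below 0. LOX fell, and NDRG1 (31887 and 17681) was at -0.85. ATF4 and amino acid response genes had a median of -0.29, with CHAC1 at -0.99 (80.3% assigned by position) and the transporter SLC7A5 (143269 and 88310) at -0.70. All 27 heat shock chaperones were below 0, with a median of -0.34 that became -0.11 with the level decile taken off and -0.05 against the mean of shTP63 and shSOX2. HSPB1 had 45915 and 28266 (-0.70). Genes of the unfolded protein response had a median of -0.20 (-0.09 with the level decile taken off). They were led by EIF2AK3 (-0.81), which lies beside an unassigned transcript, and PDIA4 (21487 and 12787, -0.75).

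In the EGF receptor family and its ligands, 6 of 11 members were below 0 and 5 above, with a median of -0.07. Besides EGFR, the ligands NRG1 (5497 and 3391, -0.70) and EGF (256 and 145.9, -0.81) were lower and BTC (965.7 and 1276, 0.40) higher, while ERBB2 (-0.13), ERBB3 (0.03) and TGFA (0.01) stood near the median of all genes. The list of RAS, MEK/ERK and PI3K/AKT genes had a median of -0.19 (-0.05 with the level decile taken off). In it PIK3CD (624.1 and 323.5) was at -0.95 and MAP2K2 (18635 and 12529) at -0.57. Of 21 genes that respond to ERK or feed back on it, 17 were below 0 (median -0.33). ETV4, a PEA3 factor, fell (2665 and 1321, -1.01, but -0.80 with the GC decile taken off), its relative ETV5 had 3506 and 2000 (-0.81) and the phosphatase DUSP4 871 and 458.4 (-0.92). DUSP4 and ETV5 were higher in shTP63 (1809 and 4626) and in shSOX2 (1307 and 5994) than in either. The median of this list against those libraries was -0.77.

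Other signalling lists had few members past the fold. Of YAP/TEAD targets, ANKRD1 (1462 and 505, -1.53) and CCN2 (396.2 and 176.8, -1.16) fell, and both were higher in shTP63 (2974 and 687) than in scramble. The list's median was -0.29. Wnt genes had a median of -0.30, with WNT5A and the secreted antagonist DKK3 (4393 and 2195, -1.0, but -0.92 with the GC decile taken off) falling, and Notch genes one of -0.40 with none falling. In the latter, NOTCH3 (1919 and 1180) and the ligand JAG2 (15161 and 9351) were each at -0.70. In TPM NOTCH3 went from 4.61 to 5.27, the opposite direction, and the median of the Notch list was -0.22 with the GC decile taken off and 0.08 against the mean of shTP63 and shSOX2. TGF-beta genes had a median of -0.29, with TGFB1 (4331 and 2193) at -0.98 and INHBA and BMP2 at -0.83 and -0.77. Of immediate early genes, EGR2 fell (104.1 and 40.4, -1.34), at a median of -0.14. Among matrix proteases, MMP7, matrilysin, rose (167.5 and 380.6, 1.18), MMP13 (9536 and 14108) was at 0.57 and the inhibitor TIMP2 at -0.53. Among motility kinases and cytoskeleton genes, FSCN1 fell and the receptor AXL (5140 and 2827) was at -0.86. That list had a median of -0.27, or -0.12 with the level decile taken off. NF-kB targets had one of -0.11, with IL6 (1069 and 638.4) at -0.74 and CCL20 at 0.61. HMGA and oncofetal genes had one of 0.02, with IGF2 falling.

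Proliferation genes stood at the median of all genes. The DNA replication list had a median of -0.04, with 24 of 42 members below 0 and none past the fold, and the mitosis list one of -0.05, with 26 of 40 below 0. POLD2 (19810 and 13644) was at -0.54, MCM2 (28527 and 20334) at -0.49 and CDC20 (12296 and 8506) at -0.53. Against the mean of shTP63 and shSOX2, the medians were 0.46 and 0.28. For TYMS, thymidylate synthase, the levels were 33983 in scramble, 25311 in shCCAT1, 11614 in shTP63 and 5474 in shSOX2. Among G1 regulators (median 0.02) cyclin E2 rose: CCNE2 had 1553 and 3117 (1.01, interval 0.92 to 1.09), with 1303 in shTP63 and 1499 in shSOX2, so that shCCAT1 was the only high library, at 0.92 with the GC decile taken off. Targets of p53 had a median of -0.01, with FAS at 0.44 and BTG2 at 0.42, and BCL2 family and caspase genes one of -0.07, with BCL2 at -0.74 and BCL2L11 at 0.54.

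Gene expression machinery ranged from near the median to slightly below it. Medians were -0.03 for splicing factors, -0.02 for enhancer and Mediator genes and for the mitochondrial ribosome, -0.12 for nuclear and -0.09 for mitochondrial respiratory chain genes, -0.17 for cytosolic ribosomal proteins, -0.19 for the proteasome, -0.21 for ribosome biogenesis and -0.22 for translation factors. No member of these lists passed the fold. With the level decile taken off, the last 4 medians were 0.05, -0.02, -0.08 and 0.00, and that of the mitochondrial respiratory chain 0.14. Interferon-stimulated genes had a median of -0.02, with XAF1 (490.5 and 869.9) at 0.83 and OAS3 (105347 and 80309) at -0.39, and MHC class I presentation genes one of -0.10, with CALR (87043 and 53007) at -0.72 and PSMB9 (5011 and 6840) at 0.45. Epithelial-mesenchymal transition genes had one of 0.00, with 7 members below 0 and 7 above: CDH1 (45683 and 33067), CDH2 and VIM were at -0.47, -0.53 and -0.53, and CLDN7, TWIST1 and SNAI1 at 0.29, 0.22 and 0.21. Squamous transcription factors had one of -0.17, with PITX1 at -0.63 and KLF4 at -0.42.

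Families formed by the letters of the gene symbol, a grouping made after the values were seen, were described in the same way. Of 156 families with at least 10 well-counted protein-coding members, 108 had a median below 0, and in all 12594 genes so considered 1.89% fell and 0.802% rose. KRT genes had the highest share that fell (4 of 16, median -0.52), with KRT75 of hair follicles (294.6 and 92.7, -1.66) as the member not yet named. All 17 ALDH genes were below 0 (median -0.51), and ALDH1L1, ALDH2 and ALDH4A1 were at -1.04, -0.86 and -0.89. CDH genes (median -0.47, 2 of 11 fell), WNT genes (-0.51, 1 of 11) and COL genes (-0.35, 1 of 21) were lower. With the GC decile taken off, the medians were -0.30 for KRT, -0.31 for ALDH, -0.37 for CDH, -0.21 for WNT and -0.20 for COL genes, and with the level decile taken off that of CDH was -0.24.

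Zinc finger genes were the largest family on the other side. Of 384 ZNF genes, which mostly code for DNA-binding repressors, 101 were below 0, 14 (3.65%) rose and 2 (0.521%) fell, and the median was 0.21. The 14 ZSCAN genes all lay above 0 (median 0.36). With the GC decile taken off the medians were 0.25 and 0.35, with the level decile 0.20 and 0.36, and against the mean of shTP63 and shSOX2 0.17 and 0.18. Counted over all protein-coding genes, ZNF and ZSCAN genes were 18 of the 141 that rose, 2 of the 269 that fell and 406 of 13087 in all. ZNF700, with 36.9% of its words shared, had 811 counts in scramble, 1632 in shCCAT1, 1009 in shTP63 and 1001 in shSOX2 (1.01). ZNF782 had 360, 739, 258 and 337 (1.04), and ZNF396 137, 373, 370 and 191 (1.44). In ZNF700 and ZNF782 shCCAT1 was the only high library. HOXA genes, the homeobox genes of body axis and limb, had a median of 0.47, and 1 of 11, HOXA6, was below 0. Their median was 0.49 with the GC decile taken off, 0.40 with the level decile and 0.17 against the mean of shTP63 and shSOX2. HOXA9 had 1833 and 2530 (0.46) and HOXA10 3499 and 4170 (0.25).

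Some other genes rose, most of them of low level, and were chosen here after their values were seen. The lists of interferon-stimulated and MHC class I genes held none that rose. HLA-DRA, the alpha chain of the class II antigen HLA-DR, had 121 counts in scramble, 365 in shCCAT1, 324 in shTP63 and 148 in shSOX2 (1.59, interval 1.30 to 1.90), and CD74, its invariant chain, 98.9, 274, 343 and 145 (1.46). CIITA, the class II regulator, did not reach the fold, with 465.7 and 620.6 (0.41). SERPINB4, a protease inhibitor of squamous cells, had 25 counts in scramble and 115.8 in shCCAT1 (2.17), against 8.5 in shTP63 and 18.6 in shSOX2. TRIM31 had 149 and 388 (1.38), but 2207 in shTP63. CYP3A4 and UGT1A7, enzymes of drug metabolism, had 79.9 and 74.9 counts in scramble and 177 and 166 in shCCAT1. HAS2, which makes hyaluronan, had 414 and 850, and RGS2, a brake on G-protein signals, 752 and 1679.

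Among genes that share at most 50% of their words, the rises with the highest interval bounds were mostly of lncRNA genes known by identifier only. ENSG00000258377 (hg19 chromosome 14, 50087533 to 50090198) had 22.5 counts in scramble and 1594 in shCCAT1 (6.08, interval 5.52 to 6.80), with 20.5 in shTP63 and 0 in shSOX2. ENSG00000232035 (chromosome 9, 10631750 to 10632203) had 45.3 and 871.2 (4.23), with 89.4 and 139.1, and ENSG00000257663 15.3 and 286.4 (4.14). In each of these shCCAT1 stood alone. ENSG00000260465 was listed at 0 in scramble, shTP63 and shSOX2 and had 173.4 in shCCAT1, with a lower interval bound of 5.49 on the log2 scale. FAM117B was at 0 in scramble and 201.1 in shCCAT1 (lower interval bound 5.70), but it lies beside an unassigned transcript and shSOX2 had 128.8. Unassigned transcripts also lie beside TMEM121, C17orf100 and WASF2, which had 4.2, 5.7 and 8.4 counts in scramble and 80.9, 82.2 and 86.4 in shCCAT1.

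In the opposite direction, the lncRNA gene ENSG00000261093 had 136.8 counts in scramble and 0 in shCCAT1 (upper interval bound -5.52), with 85.8 in shTP63 and 112.5 in shSOX2. RAET1E-AS1, an antisense gene beside an unassigned transcript, had 279.8 and 49.1 (-2.49) and ENSG00000224251 108.2 and 19 (-2.45). In the list of 30 abundant lncRNAs the median was 0.06, with 19 members above 0. CCAT1 and LINC01315 (281 and 136.4, -1.04, but -0.88 with the GC decile taken off) fell and none rose. Of 9 well-counted replication-dependent histone genes, whose transcripts mostly lack a poly(A) tail, 8 were above 0 (median 0.22), with H2AC6 (1894 and 2760) at 0.54. In shTP63 and shSOX2 H2AC6 stood at 6615 and 6375, and the list's median against their mean was -1.35.

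The make-up of the libraries moved with these results. Transcripts annotated as protein-coding took 83.9% of counts in scramble, 82.2% in shCCAT1, 82.3% in shTP63 and 82.6% in shSOX2. Transcripts with a retained intron took 3.13%, 3.84%, 3.70% and 3.88%, and lncRNA transcripts 1.40%, 1.85%, 1.74% and 1.42%. Retained introns were thus lowest in scramble, and lncRNA was high in shCCAT1 and shTP63. Transcripts of mitochondrial DNA took 5.20%, 5.45%, 5.31% and 5.48%. Their part in the single genes was not tested.

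Words of 7 bases in the 3' UTR were ranked. In 12062 protein-coding genes, 12182 words were each held by at least 300 genes, and the change was first corrected by a linear fit on UTR length, GC share and mean level. The lowest and the highest word are shown, as read on the transcript, because they carry what pattern there was.
Lowest word: AGCCCCG
Highest word: TCGAACT
The 586 genes that hold the lowest word (4.86% of the genes) differed from the other genes by a mean of -0.101 on the log2 scale, and the 506 genes that hold the highest word (4.19%) by 0.075. Each of the 10 lowest words holds at least 5 bases that are G or C, while 17.7% of all words have that many. Each also holds a CG, but so do most of the 10 highest words, the one shown among them. No word differed by more than 0.101 after the fit. With no fit the lowest difference of any word was -0.238. The medians by GC decile above were taken without a fit, so the fitted values cannot be set beside them.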

How the data were processed

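Paired-end RNA-Seq of total RNA was pseudoaligned by the authors with kallisto (version not given in the sources used here) to hg19 transcripts, and they deposited 1 table per library with an estimated count and a TPM value per Ensembl transcript. Here the estimated counts were summed to genes with GENCODE 44 on GRCh37. Of 196354 transcripts, 182863 were found there, 7011 were assigned because the rows on both sides in the table belong to 1 gene (99.74% correct on 7183 transcripts treated as unknown), and 6480, with 2.69% and 2.72% of counts, were left out. Genes beside a left-out transcript that held over 20% of the gene's own count are said to lie beside an unassigned transcript.

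Counts were scaled by TMM over 7 libraries (edgeR 4.0.16, R 4.3.3), and the change is log2 of the ratio of normalized counts plus 1. The 95% interval is the exact binomial (Clopper-Pearson) interval of the ratio, which covers counting error only, since reads without molecular identifiers are not independent molecules. Libraries held 68532611 to 98036494 estimated counts. Genes whose reads could be split with a near copy were marked by how many of their 31-base words recur elsewhere (over 50%: uncertain). Scripts were tested on simulated data.

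The members and lists were chosen with earlier results of these data known. Named genes are those the study discusses for CCAT1, the 15 lowest and 15 highest by the interval bound nearest to 0, the 10 lowest and 10 highest with 5000 or more counts, 5 non-coding genes a side and up to 4 genes per list. Further members, the functional groups and the symbol families were chosen after their values were seen. Alternatives were other scalings, count minimums, pseudocounts, TPM, folds and gene sets, and, chosen after seeing the data, transcript assignment and the deciles of level and GC share. Sequences of the hairpins were not used here. Some genes that these rules name are not reported here.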

Additional observations from a re-analysis of the deposited data

How the results depend on the processing

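No paired analysis was possible because there is 1 library per condition, and the numbers in the titles name the hairpin. No library could be left out for the same reason. The counts of genes lower and higher (308 and 316) were 199 and 540 with total counts only, 1417 and 2827 at a count minimum of 10, 474 and 691 at 50, 47 and 19 at 1000, 5998 and 4501 with no minimum, 1170 and 1129 at a log2 threshold of 0.58, and 165 and 124 with the interval past the fold. TPM gave 218 and 437, DESeq2 size factors 329 and 298. Among protein-coding genes 141 were higher, and with the median of the level decile taken off 184. Genes with 100 counts in shCCAT1 or in shTP63 and shSOX2 had 773 lower against the mean of those libraries. The log2 change of CCAT1 was -0.53 against that mean. Of 2350 values over 235 named genes, 59 had the opposite sign, 45 of them against the mean of shTP63 and shSOX2, 4 in TPM, 4 with total counts only, 4 and 1 with the level and GC decile taken off and 1 without transcripts assigned by position. Of genes past the fold, 5 values turned: IGFBP5 to 0.11 in TPM, and against the mean of shTP63 and shSOX2 TMEM121 to -0.02, KRT6A to 1.65, DHRS2 to -0.40 and LINC01315 to 0.26. Of 459 list medians recomputed over 51 lists, 173 moved by over 0.1. The lowest 3' UTR word was at -0.221 with no linear fit, -0.055 at a count minimum of 1000 and -0.053 against that mean, and the highest at 0.039 at the minimum of 1000. The cause of these differences was not tested, except that other count minimums test other numbers of genes. In the decile with 137 counts or fewer, where few reads set each value, 13.8% rose and 6.39% fell. The minimum of 100 was set on estimated counts, which were then divided by 1.261 in shCCAT1 and 0.961 in scramble. Genes thus passed at a lower normalized level through shCCAT1 than through scramble. The part of this in the rises at low level was not tested.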
